A study of Rattus norvegicus with 16 samples.

Results

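Stac3, Inmt, Sez6, Nrep and Zfp37 are 5 genes whose liver signal was far lower in rats fed CDAA, a diet of defined L-amino acids without choline, than in rats on normal chow, and which are best known for work outside the liver. They were picked by name from earlier results on the same arrays, so their difference between the diets is described here and not tested. Each of the 5 is represented by 1 probe set that carries its symbol alone, out of 11434 genes with a tested probe set. All 5 probe sets passed the filter on low signal. With all probe sets as background, limma called 14.4% lower and 21.0% higher with CDAA feeding among control rats (35.5% in all), and 19.3% lower and 25.5% higher under hydrogen (44.8% in all), at an adjusted p under 0.05. The balance of directions depended on the scaling: after a further quantile normalisation, 3946 were higher and 3825 lower in control rats, and 4558 were higher and 5007 lower under hydrogen.

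RNA from whole liver of 16 male F344 rats, an inbred strain, was hybridised to RG-230 PM arrays, 1 array per rat. Per the labels the rats were 4 weeks old and were reared for 3 weeks. The 4 groups of 4 rats were the CDAA diet with hydrogen, the CDAA diet with control treatment, normal chow with hydrogen, and normal chow with control treatment. Hydrogen was given both in the drinking water, at 0.7 mM, and in the air, at 2%, whereas control rats received dehydrogenized water and plain air. Values are normalised log2 signals, in which a difference of 1 is a doubling, and they compare arrays for 1 probe set, not probe sets with each other. The labels list each replicate as a sample of its own, and the small number of arrays limits the precision. In whole tissue, fewer cells of a type and less RNA per cell cannot be told apart.

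The 5 genes come from unrelated pathways. Stac3 is an adaptor protein of skeletal muscle that joins the voltage-sensing calcium channel to the ryanodine receptor, the step that couples excitation to contraction. Inmt (indolethylamine N-methyltransferase) moves a methyl group from S-adenosylmethionine onto tryptamine and related amines. Sez6 is a membrane protein of neurons with sushi and CUB domains, which shapes dendrites and synapses and is cut by the protease Bace1 in mice. Nrep, a small intracellular protein also called P311, is known from neurons and from wound repair in mice, where it raises TGF-beta. Zfp37 belongs to the zinc finger proteins with a KRAB domain, which as a class recruit the corepressor Trim28 to DNA. The CDAA diet withholds choline, a methyl donor and a precursor of phosphatidylcholine, and leads to fatty liver in rats.

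The promoters of 4 of the 5 genes are shown so that the start regions of genes that were low together can be set side by side. Each runs from 250 bases before the start site to 50 bases from it on, read 5′ to 3′ on the gene's strand, from RefSeq on build GRCr8. Stac3 lies at chr7:65228225-65228524 on the plus strand, Inmt at chr4:85652706-85653005 on the minus strand, Nrep at chr18:25320693-25320992 on the minus strand and Zfp37 at chr5:80654156-80654455 on the minus strand. Capitals mark matches to the motifs named after the sequences.
Stac3: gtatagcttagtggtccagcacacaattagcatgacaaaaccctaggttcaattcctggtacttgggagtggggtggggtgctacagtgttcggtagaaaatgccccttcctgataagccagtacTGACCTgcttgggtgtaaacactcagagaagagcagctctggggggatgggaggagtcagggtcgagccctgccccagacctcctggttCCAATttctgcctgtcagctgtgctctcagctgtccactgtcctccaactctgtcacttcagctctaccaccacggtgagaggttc
Inmt: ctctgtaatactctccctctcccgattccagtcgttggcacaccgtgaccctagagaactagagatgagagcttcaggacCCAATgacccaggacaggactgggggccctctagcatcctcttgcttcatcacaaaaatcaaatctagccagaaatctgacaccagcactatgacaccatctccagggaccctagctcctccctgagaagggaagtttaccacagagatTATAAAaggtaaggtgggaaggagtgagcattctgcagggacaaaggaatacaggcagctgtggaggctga
Nrep: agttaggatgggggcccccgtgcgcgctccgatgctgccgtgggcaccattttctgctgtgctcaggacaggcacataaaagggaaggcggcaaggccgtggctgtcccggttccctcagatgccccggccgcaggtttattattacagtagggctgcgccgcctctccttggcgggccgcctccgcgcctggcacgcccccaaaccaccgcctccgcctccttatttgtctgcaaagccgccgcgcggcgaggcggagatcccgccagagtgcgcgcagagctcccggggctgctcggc
Zfp37: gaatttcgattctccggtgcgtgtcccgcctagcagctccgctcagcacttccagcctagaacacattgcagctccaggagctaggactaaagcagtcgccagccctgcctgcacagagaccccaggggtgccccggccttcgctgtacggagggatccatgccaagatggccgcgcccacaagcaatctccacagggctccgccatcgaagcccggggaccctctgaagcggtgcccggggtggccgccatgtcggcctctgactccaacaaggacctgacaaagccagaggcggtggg

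The promoters fell into a poorer and a richer pair in CpG dinucleotides. Stac3 and Inmt each held 3 CpG, with 54% and 51% G or C, whereas Nrep held 30 and Zfp37 held 19, with 68% and 64.3% G or C. The medians over 33469 rat promoters of the same length were 7 CpG and 51.7% G or C. Of 7 motifs searched on both strands, Inmt held TATAAA, the core promoter box, at positions −21 to −16 from the start site. It also held CCAAT at −170 to −166. Stac3 held CCAAT at −36 to −32, and AGGTCA, a motif bound by nuclear receptors, on the other strand at −125 to −120. These 3 motifs occur in 14.2% (TATAAA), 37.5% (CCAAT) and 16.2% (AGGTCA) of all promoters. None of the other motifs matched the 4 windows. They were the GC box GGGCGG, held by 33.1% of all promoters, the E box CACGTG, held by 6.42%, the AP-1 motif TGANTCA, held by 7.33%, and the Stat motif TTCNNNGAA, held by 8.87%. Some of these motifs can overlap each other, and a match describes letters, not binding.

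With 1 probe set kept per gene, Stac3 ranked 1 among 11434 genes by its lower signal on the CDAA diet, both in control rats and under hydrogen. A probe set of Obp3 that was not kept differed by more, −6.50 in control rats and −8.68 (log2) under hydrogen. The signal of Stac3 was 4.23, 3.74, 4.01 and 4.49 in CDAA rats with hydrogen and 4.04, 4.08, 4.13 and 8.65 in CDAA control rats, replicates 1 to 4. In rats on normal chow it was 10.96, 10.97, 10.82 and 10.67 with hydrogen and 10.99, 11.13, 10.84 and 10.68 with control treatment. Of the 8 CDAA arrays 7 lay close to the low-signal line of 3.68 used for filtering, while replicate 4 of the CDAA control group stood well above them and still below every normal-chow array. The diets were 2.02 apart between the highest CDAA and the lowest normal-chow value.

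The diet difference of Stac3 depended on that array in size. It was −5.69 ± 0.710 log2 in control rats (SE, n = 4 rats a group), or 51.4-fold lower on the CDAA diet, and −6.83 ± 0.144, or 113.5-fold lower, when replicate 4 of the CDAA control group was left out. Under hydrogen it was −6.74 ± 0.710, or 106.7-fold lower, and its error was 0.144 when only the 2 groups compared were fitted. The fit of all 16 arrays shares 1 spread, so the high array widens the error of every Stac3 contrast, those without it included. Group means were 4.12 ± 0.319 in CDAA rats with hydrogen and 5.23 ± 2.28 in CDAA control rats, against 10.86 ± 0.141 with hydrogen and 10.91 ± 0.194 with control treatment on normal chow (SD, n = 4).

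**Figure D1:**
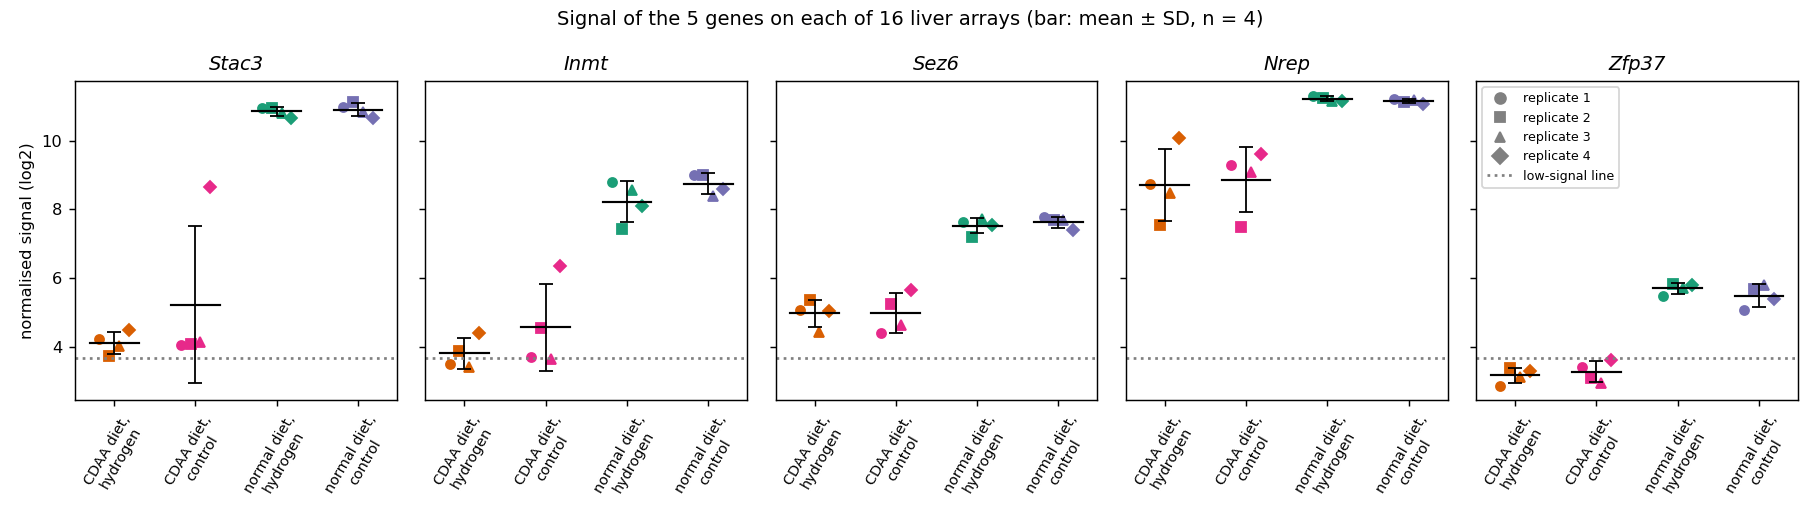
Normalised log2 signal of the 5 genes on each of the 16 liver arrays, by group, with the mean and SD of 4 rats and the low-signal line at 3.68. All 8 CDAA arrays lie below all 8 normal-chow arrays for each gene, and replicate 4 of the CDAA control group is high for Stac3 at 8.65 and for Inmt at 6.36.

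No muscle partner of Stac3 passed the test in control rats. Of 13 listed genes of excitation-contraction coupling, 11 were on the array and 7 were tested. In control rats limma called 0 of the 7 between the diets (1 at an unadjusted p under 0.05), with a median difference of −0.10 log2, against 0.04 over all 11434 genes. Under hydrogen 3 of the 7 fell, with a median of −0.11 and a count of 1 when either set of rescaled values was used. Limma called 40.6% of all genes in control rats and 49.5% under hydrogen. The ryanodine receptor gene Ryr1 averaged 3.58 in CDAA control rats against 3.73 in normal control rats, a difference of −0.15 ± 0.065 (limma, adjusted p = 0.0916). Cacnb1, a calcium channel subunit, differed by −0.12 ± 0.074 (adjusted p = 0.249). The closest relative on the array, Stac2, lay below the low-signal line on every array, as did Cacna1s, Cacng1 and Casq1, which encode the calcium channel of the muscle membrane, one of its subunits and calsequestrin.

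Markers of skeletal muscle tissue were near background. The muscle markers Acta1, Ckm, Mb and Pvalb lay below the low-signal line on all 16 arrays. The mean of 9 measured muscle markers was 3.60 to 3.67 in CDAA rats with hydrogen, 3.60 to 3.70 in CDAA control rats, 3.69 to 3.74 with hydrogen on normal chow and 3.67 to 3.73 with control treatment on normal chow. Of the 4 tested, 0 were called in control rats (0 at an unadjusted p under 0.05), with a median of −0.02, and 1 rose under hydrogen, with a median of −0.14. The count under hydrogen was 0 without replicate 1, 2 or 3 of the normal-chow group with hydrogen or replicate 1 or 3 of the CDAA group with hydrogen, and 2 without replicate 4 of the CDAA group with hydrogen.

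Inmt ranked 3 among all genes by its lower signal on the CDAA diet in control rats and 4 under hydrogen. Its signal was 3.51, 3.88, 3.42 and 4.41 in CDAA rats with hydrogen and 3.70, 4.56, 3.65 and 6.36 in CDAA control rats. On normal chow it was 8.79, 7.43, 8.56 and 8.11 with hydrogen and 9.00, 9.01, 8.39 and 8.59 with control treatment. The same CDAA control rat was the highest of its diet, replicate 2 was the lowest on normal chow with hydrogen, and 1.07 separated the diets. On 3 of the 8 CDAA arrays the signal was below the low-signal line. With those arrays set at the line, it was at least 18.0-fold lower with CDAA in control rats and 19.8-fold lower under hydrogen. The difference between the diets was −4.18 ± 0.462 log2 in control rats, 18.1-fold lower on the CDAA diet, and −4.42 ± 0.462 under hydrogen, 21.4-fold lower. Without replicate 4 of the CDAA control group the first became −4.78, 27.4-fold lower.

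Several small-molecule methyltransferases related to Inmt in function were lower on the CDAA diet, by much less. Of 10 tested, 5 fell and 0 rose in control rats, and 7 fell and 0 rose under hydrogen, with medians of −0.35 and −0.23 log2. The 7 under hydrogen became 4 without replicate 4 of the normal-chow group with hydrogen. Over all genes 3120 rose and 1520 fell of 11434 in control rats, and 3673 rose and 1983 fell under hydrogen, where the median was 0.05. Gnmt, which methylates glycine and disposes of S-adenosylmethionine, averaged 10.37 in CDAA control rats against 11.90 in normal control rats, a difference of −1.53 ± 0.199 (limma, adjusted p = 3.94e-05). Gamt, which makes creatine, fell by 0.40 (adjusted p = 0.000150) and Mettl7b by 0.79 (adjusted p = 0.000299). Nnmt, the closest relative of Inmt, which methylates nicotinamide, differed by −0.38 ± 0.195 in control rats (adjusted p = 0.149) and fell by 0.57 under hydrogen (adjusted p = 0.0258). Leaving out replicate 4 of the CDAA control group gave −0.62 for Nnmt in control rats (adjusted p = 0.00326). Pnmt, which makes adrenaline, did not pass the filter.

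Genes that supply the methyl donor moved both ways. Of 16 tested genes, 2 rose and 9 fell in control rats, and 2 rose and 8 fell under hydrogen, with medians of −0.31 and −0.20. Among all 11434 genes 3120 rose and 1520 fell in control rats, and 3673 rose and 1983 fell under hydrogen. Mat2a, the S-adenosylmethionine synthetase of growing and non-hepatic cells, rose by 2.01 ± 0.220 log2 (limma, adjusted p = 1.01e-05), to 9.95 in CDAA control rats against 7.93 in normal control rats. Cbs, which draws homocysteine into cysteine synthesis, fell by 1.36 (adjusted p = 2.75e-06). Dmgdh, which oxidises dimethylglycine, a product of choline breakdown, fell by 0.81 (adjusted p = 1.40e-06), and Bhmt2, a homocysteine methyltransferase, fell by 0.71 (adjusted p = 4.63e-06).

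The tryptophan and indoleamine genes, whose products include the substrates of Inmt, were mostly lower. Of 16 tested, 12 fell and 0 rose in control rats, and 11 fell and 0 rose under hydrogen, with medians of −0.54 and −0.44 log2. Among all 11434 genes 3120 rose and 1520 fell in control rats, and 3673 rose and 1983 fell under hydrogen. Ddc, the decarboxylase that makes tryptamine from tryptophan, averaged 7.96 in CDAA control rats against 9.25 in normal control rats, a difference of −1.30 ± 0.084 (limma, adjusted p = 6.00e-07). Kmo and Aadat of the kynurenine route fell by 1.23 (adjusted p = 0.000150) and 0.91 (adjusted p = 4.18e-05). Aldh2, which oxidises aldehydes, fell by 0.47 (adjusted p = 0.000204).

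Sez6 was measured at 5.06, 5.37, 4.43 and 5.04 in CDAA rats with hydrogen and at 4.41, 5.26, 4.62 and 5.65 in CDAA control rats. Normal-chow rats had 7.63, 7.21, 7.73 and 7.56 with hydrogen and 7.77, 7.68, 7.68 and 7.39 with control treatment. The diets were 1.56 apart, and every CDAA array was above the low-signal line. On the CDAA diet the signal was 6.25-fold lower in control rats (−2.65 ± 0.232 log2) and 5.89-fold lower under hydrogen (−2.56 ± 0.232). It ranked 8 and 11 among all genes.

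Of 6 tested genes of its family, of other CUB and sushi proteins and of the Bace proteases, 0 rose and 1 fell in control rats, and 1 rose and 2 fell under hydrogen, with medians of −0.08 and −0.13 log2. The gene that fell in control rats was Sez6l2, by 0.23 ± 0.065 (limma, adjusted p = 0.0119), to 4.73 in CDAA control rats against 4.96 in normal control rats. Sez6l did not pass the filter. Limma called 40.6% of all genes in control rats and 49.5% under hydrogen. Neuron markers were near background: Nefl, Nefm, Map2, Stmn2 and Uchl1 lay below the low-signal line on all 16 arrays, and the mean of 13 markers stayed between 3.59 and 3.75. Of the 7 neuron markers tested, 2 fell in control rats and 1 fell under hydrogen, with medians of −0.09 and −0.12, and the count in control rats was 0 without replicate 4 of the CDAA control group or without replicate 2 or 3 of the normal control group.

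Nrep lay well above the low-signal line on both diets and varied widely among CDAA rats. It was 8.74, 7.55, 8.49 and 10.08 in CDAA rats with hydrogen and 9.31, 7.48, 9.09 and 9.61 in CDAA control rats. Normal-chow rats gave 11.32, 11.26, 11.17 and 11.17 with hydrogen and 11.23, 11.13, 11.19 and 11.08 with control treatment. Replicate 2 was the lowest array of both CDAA groups and replicate 4 the highest, whereas the normal-chow arrays were within a narrow band. The SD over the 8 arrays of a diet was 0.929 on the CDAA diet and 0.0754 on normal chow. The diet difference was −2.29 ± 0.435 log2 in control rats, 4.87-fold lower, and −2.52 ± 0.435 under hydrogen, 5.72-fold lower, with a gap of 1.00 between the diets.

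Genes of the TGF-beta pathway, to which Nrep is tied in wound repair, mostly rose where they were called, as did called genes in general. Of 22 tested, 9 rose and 1 fell in control rats, and 11 rose and 4 fell under hydrogen, with medians of 0.14 and 0.18 log2. Over all 11434 genes in the same fit, 3120 rose and 1520 fell in control rats, and 3673 rose and 1983 fell under hydrogen. Ltbp1 and Ltbp4, which hold latent TGF-beta in the matrix, rose by 0.99 ± 0.110 (limma, adjusted p = 1.16e-05) and 0.78 ± 0.107 (adjusted p = 5.63e-05). The receptor gene Tgfbr1 rose by 0.36 (adjusted p = 0.00181), and Ski, which represses Smad proteins, fell by 0.34 (adjusted p = 0.000807), with −0.34 and −0.68 on its other probe sets.

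Zfp37 was under the low-signal line on every CDAA array. Its values were 2.87, 3.38, 3.12 and 3.29 in CDAA rats with hydrogen and 3.41, 3.09, 2.95 and 3.62 in CDAA control rats. With normal chow they were 5.47, 5.82, 5.70 and 5.81 under hydrogen and 5.07, 5.69, 5.80 and 5.39 with control treatment. The groups of the 2 diets lay 1.45 apart. Since the CDAA values give only a bound, the signal was at least 3.50-fold lower on the CDAA diet in control rats and at least 4.06-fold lower under hydrogen, with the low-signal line in place of the CDAA mean. The measured differences were −2.22 ± 0.166 and −2.54 ± 0.166 log2, ranks 13 and 12 among all genes.

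Other zinc finger genes with a Zfp symbol were called in both directions. Of 139 tested, 30 rose and 16 fell in control rats, and 36 rose and 18 fell under hydrogen. Over all 11434 genes 3120 rose and 1520 fell in control rats, and 3673 rose and 1983 fell under hydrogen. Rises outnumbered falls there too, so nothing particular to these genes is read from the balance. The medians of the Zfp genes were 0.07 and 0.06 log2, and the second turned to −0.04 after a further quantile normalisation. Zfp202 rose by 0.97 (limma, adjusted p = 1.01e-05) and Zfp106 by 0.67 (adjusted p = 1.21e-05; 0.39 on a second probe set), while Zfp281 fell by 0.62 (adjusted p = 3.26e-05). For Zfp787 the probe sets disagreed: the one of higher mean gave 0.56 (adjusted p = 1.98e-05) and the other −0.12 (adjusted p = 0.197). Of 10 genes of the KRAB corepressor complex, 4 rose and 2 fell in control rats, and 5 rose and 3 fell under hydrogen, with medians of −0.02 and 0.16, and 5 instead of 8 were called under hydrogen after a further quantile normalisation. Trim28, the scaffold of that complex, averaged 7.87 in CDAA control rats against 7.37 in normal control rats, a rise of 0.51 ± 0.072 (adjusted p = 7.42e-05). Morc3, a chromatin ATPase, rose by 0.34 (adjusted p = 0.000917), and the histone deacetylase Hdac2 fell by 0.62 (adjusted p = 0.000234).

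All 8 CDAA arrays lay below all 8 normal-chow arrays for each of the 5 genes, which also holds for 6.94% of the 22634 probe sets tested.  These contrasts chose the 5 genes, so nothing is read from their place in them. The comparisons in control rats and under hydrogen share no arrays with each other, but the genes were named with both in view.

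Replicate 4 of the CDAA control group was above the mean of the other CDAA rats for all 5 genes, to unequal degrees. On a scale from the mean of the other 7 CDAA arrays (0%) to the mean of the 8 normal-chow arrays (100%), it lay at 67.1% for Stac3, 53.9% for Inmt, 37.1% for Nrep, 28.4% for Sez6 and 18.9% for Zfp37. In log2 units it exceeded the mean of the other 7 CDAA arrays by 4.55 for Stac3, 2.48 for Inmt, 0.93 for Nrep, 0.77 for Sez6 and 0.46 for Zfp37. It was the highest of the 8 CDAA arrays for 4 of the 5 genes, whereas for Nrep replicate 4 of the CDAA group with hydrogen was higher, at 56.9% of the way. The position for Zfp37 rests on values under the low-signal line and has no weight. The lowest Nrep arrays, replicate 2 of both CDAA groups, lay at −64.0% with hydrogen and −67.9% with control treatment, that is, farther from normal chow than the mean of the others.

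Other strongly lower genes also lay above the mean of the other CDAA arrays in the same rat. Of 15 genes called at least 4-fold lower in control rats, the 10 other than the 5 described here were all above the mean of the other 7 CDAA arrays on that array, by a median of 50.5% of the way to normal chow. Replicate 4 of the CDAA control group was the highest CDAA array for all of them except Bcl6 and Sds. Bcl6 read 7.15 there and 8.53 on the highest CDAA array, and Sds read 6.86 and 7.98. The median for the same 10 genes on the other CDAA arrays ran from −32.4% to 7.91%. For the 39 genes called at least 4-fold higher, the median on that array was 6.78% of the way. The comparison of this rat with the others was made after its values were seen, and why it stands apart was not tested.

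**Figure D2:**
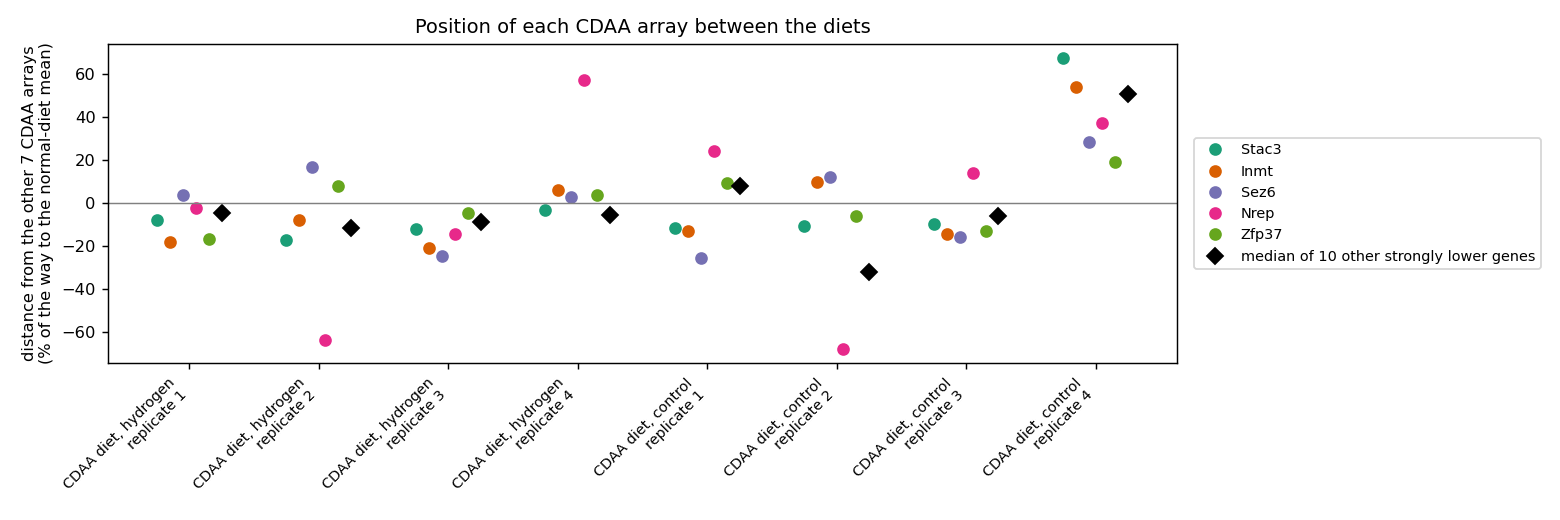
Position of each CDAA array between the diets for the 5 genes (coloured points) and for the median of the 10 other strongly lower genes (diamonds), as a percent of the way from the mean of the other 7 CDAA arrays to the normal-chow mean. Replicate 4 of the CDAA control group is above 0 for all 5 genes, with Stac3 at 67.1% and the diamond at 50.5%, whereas Nrep also moves on other arrays.

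No pair of the 5 genes was correlated among rats of a diet after adjustment. Correlations between pairs were computed over the 8 arrays of each diet, 20 in all. Stac3 and Inmt gave r = 0.916 on the CDAA diet (exact permutation p = 0.0312, adjusted 0.208) and rho = 0.429 (exact p = 0.299, adjusted 0.726). Without the 2 arrays farthest from the Stac3 median, r was −0.150, so the relation rested on those arrays. Inmt and Sez6 gave r = 0.743 on the CDAA diet (exact p = 0.0178, adjusted 0.208; rho = 0.667, exact p = 0.0831, adjusted 0.554) and r = 0.781 on normal chow (exact p = 0.0261, adjusted 0.208; rho = 0.563, exact p = 0.154, adjusted 0.570). Without the 2 farthest arrays these were 0.471 on the CDAA diet and 0.307 on normal chow. Inmt and Zfp37 on normal chow gave the smallest p for rank, with rho = −0.833 (exact p = 0.0154, adjusted 0.308) and r = −0.628 (exact p = 0.0947, adjusted 0.290), or −0.543 without the 2 farthest arrays. None of the 20 passed the adjustment.

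No hydrogen difference of the 5 genes passed the test on either diet, and the intervals are wide for Stac3. On the CDAA diet Stac3 averaged 4.12 with hydrogen and 5.23 with control treatment, a difference of −1.11 log2 with a 95% interval of −2.61 to 0.40 (limma, adjusted p = 0.586). Without replicate 4 of the CDAA control group that difference was 0.03 ± 0.144 (limma, adjusted p = 0.973). Inmt differed by −0.76 on the CDAA diet, with an interval of −1.74 to 0.22 (limma, adjusted p = 0.558), and by −0.53 on normal chow, with an interval of −1.50 to 0.45 (limma, adjusted p = 0.861).

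Hydrogen differences of the other 3 genes on the CDAA diet were closer to 0. Sez6 differed by −0.01 (−0.50 to 0.48), Nrep by −0.16 (−1.08 to 0.77) and Zfp37 by −0.10 (−0.45 to 0.25), with limma adjusted p of 0.992, 0.931 and 0.863. The value for Zfp37 says nothing of a hydrogen effect, since all 8 CDAA arrays were under the low-signal line. On normal chow Stac3 differed by −0.06 (−1.56 to 1.45; its standard error was 0.101 with only these groups fitted), Sez6 by −0.10 (−0.59 to 0.40), Nrep by 0.07 (−0.85 to 1.00) and Zfp37 by 0.21 (−0.14 to 0.56). The lowest limma adjusted p among the 5 genes on normal chow was 0.828.

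**Figure D3:**
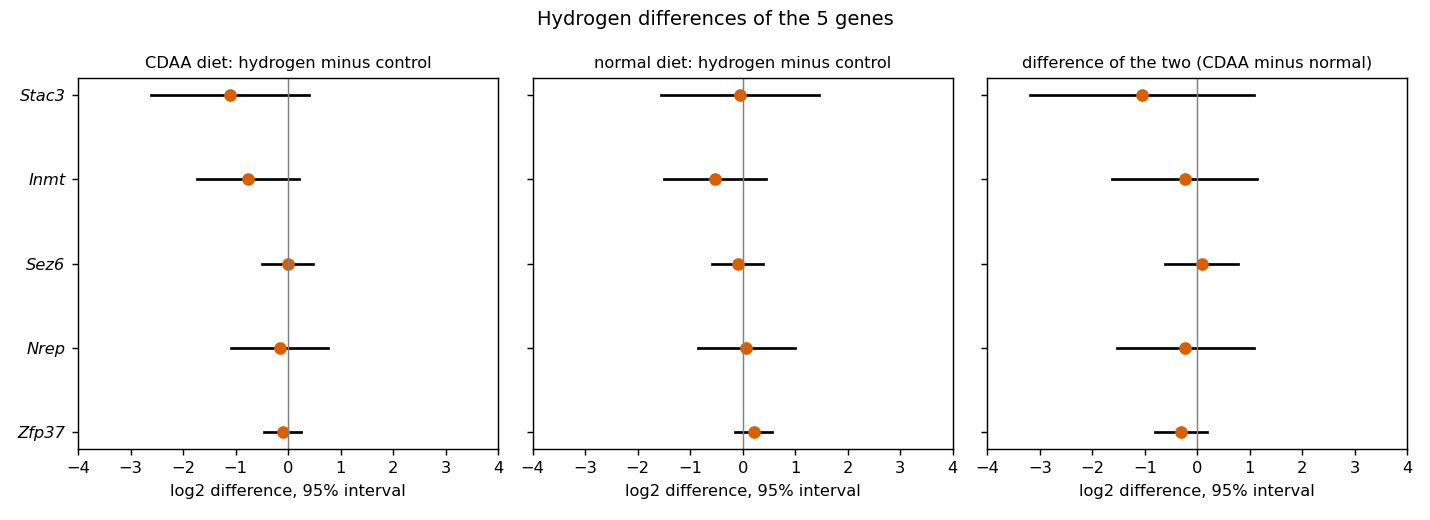
Hydrogen minus control differences of the 5 genes in log2 units on the CDAA diet and on normal chow, and the difference between these differences, as points with 95% intervals from the fit over 16 arrays. Every interval includes 0, and that of Stac3 on the CDAA diet runs from −2.61 to 0.40.

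The effect of hydrogen was not shown to differ between the diets for any of the 5. The difference between the diets in the hydrogen effect was −1.05 for Stac3 (−3.18 to 1.08; limma, adjusted p = 0.785) and −0.32 for Zfp37 (−0.81 to 0.18; limma, adjusted p = 0.714), the lowest adjusted p of the 5, with the same limit for Zfp37. Averaged over the diets, Inmt had the lowest adjusted p, with −0.64 (−1.34 to 0.05; limma, unadjusted p = 0.0661, adjusted p = 0.534), and hydrogen arrays were not separated from control arrays on either diet.

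Of the 20 hydrogen tests on these genes limma called 0, with 0 at an unadjusted p under 0.05. Over all probe sets limma called 0.314% for hydrogen on the CDAA diet, 0.00884% on normal chow, 0.00442% for the difference between the diets and 0.163% for the average, of which 0.0353% were higher. The exact two-sided permutation tests of hydrogen against control for each gene on each diet, 10 in all, gave 0 under 0.05, with a lowest adjusted p of 0.750, where 0.0286 is the smallest p that 4 arrays against 4 can give. The hydrogen and control groups overlapped for every gene on both diets. The hydrogen comparison of a diet shares its control arrays with the diet comparison in control rats, and its hydrogen arrays with that under hydrogen.

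The profile of Stac3 over the 16 arrays was closest to that of Obp3, a male rat liver gene of the secreted urinary globulins that depends on growth hormone. Likeness was measured as the root mean square difference of log2 values after each gene was centred on its mean. The values were not scaled, so this measure depends largely on how similar the diet differences of the genes are in size. In control rats the diet difference was −5.26 log2 for Obp3, −4.18 for Inmt, −4.12 for Cyp3a9 and −3.31 for Oat. Whether the likeness goes beyond the diet difference was not tested. Obp3 lay 0.627 from Stac3, whose own root mean square around its mean was 3.29, followed by Inmt at 1.15, Cyp3a9 at 1.18 and Oat at 1.48. Obp3 read 6.22, 4.46, 6.22 and 5.94 in CDAA rats with hydrogen and 7.13, 4.37, 5.96 and 10.34 in CDAA control rats. On normal chow it read 12.19, 11.90, 12.61 and 12.21 with hydrogen and 12.24, 12.42, 12.45 and 11.74 with control treatment. As with Stac3, replicate 4 of the CDAA control group was the high CDAA array, and it stayed below all normal-chow arrays. Since Obp3 was picked for likeness over these arrays, the shared high array is partly built in.

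For Inmt the closest of 11433 genes were Oat (ornithine aminotransferase) at 0.502 and Cyp3a9, a cytochrome P450, at 0.557, then Mup5 at 0.979 and Sez6 at 1.00, against 2.27 for Inmt itself. For Sez6 they were the complement gene C6 at 0.307, Zfp37 at 0.390, the glutathione transferase gene Gstm7 at 0.419 and Synrg at 0.421, against 1.34. For Zfp37 they were C6 at 0.208, Elapor1 at 0.347, Paqr9 at 0.374 and Enpep at 0.380, against 1.21, though a second probe set of Enpep differed by only −0.16 log2 between the diets in control rats. Since these genes were chosen for their likeness, their diet differences carry no test here.

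For Nrep the closest genes were Hao2 at 0.389, Akr1c3 at 0.435, Paqr9 at 0.438, which is also near Zfp37, and Hsd3b5 at 0.470, against 1.35. Hao2, a peroxisomal oxidase, read 10.48, 9.29, 10.33 and 11.10 in CDAA rats with hydrogen and 10.75, 9.65, 10.69 and 11.05 in CDAA control rats. Hsd3b5, a steroid dehydrogenase of male liver, read 9.98, 7.89, 9.61 and 10.14 with hydrogen and 10.11, 9.02, 9.48 and 10.40 with control treatment on the CDAA diet. Replicate 2 was the lowest CDAA array of each group and replicate 4 the highest for both, as for Nrep. This shared order is partly built in, since both genes were picked for likeness to Nrep over these arrays. Of the 13 distinct neighbours that are not among the 5 genes, 3 (Obp3, Mup5 and Hsd3b5) belong to the list of growth hormone and sex-patterned liver genes. That list was chosen with earlier results known, and a large diet difference favours a gene as a neighbour. Nothing is therefore read from the overlap.

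**Figure D4:**
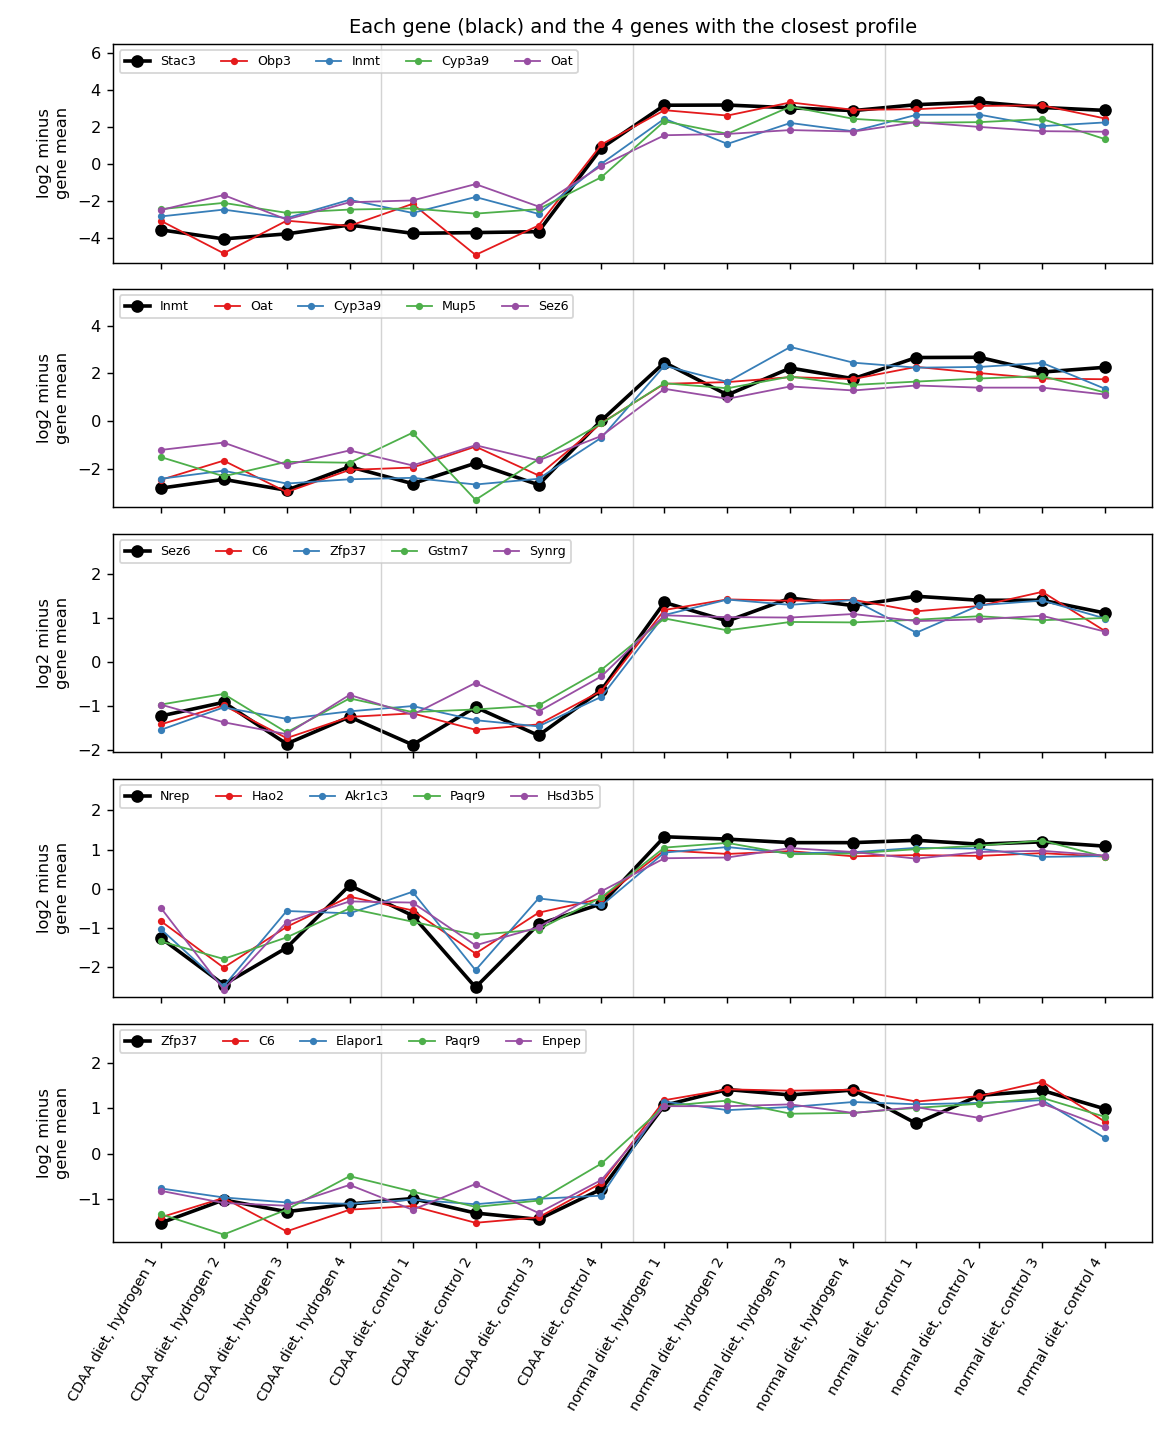
Centred log2 profiles over the 16 arrays, grouped by diet and treatment, of each of the 5 genes (black) and the 4 genes closest to it (colours); lines join arrays only to guide the eye. Stac3 and Obp3 share the high array of the CDAA control group, and Nrep and its neighbours share a low replicate 2 in both CDAA groups. The neighbours were picked for likeness over these arrays, so such shared features are partly built in.

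Of 17 tested growth hormone and sex-patterned genes, 10 fell and 0 rose in control rats, and 13 fell and 0 rose under hydrogen, with medians of −0.65 and −0.99 log2. Among all 11434 genes 3120 rose and 1520 fell in control rats, and 3673 rose and 1983 fell under hydrogen. The growth hormone receptor gene Ghr fell by 1.12 ± 0.122 (limma, adjusted p = 9.94e-06) and Igf1 by 0.65 (adjusted p = 2.73e-05). Igfals, which encodes a subunit of the carrier of insulin-like growth factor, fell by 1.66 ± 0.185 (adjusted p = 1.21e-05). Mup5, a urinary protein gene, differed by −3.01 ± 0.468 (−1.76 on a second probe set). As a neighbour of Inmt, Mup5 carries no test. The mean of the 17 genes on the single arrays was 7.60, 7.11, 7.50 and 7.84 in CDAA rats with hydrogen and 7.91, 7.40, 7.71 and 8.36 in CDAA control rats, and 8.83 to 9.14 over the 8 normal-chow arrays. The highest CDAA array was replicate 4 of the control group and the lowest of each CDAA group was replicate 2. The list includes Obp3, Mup5 and Hsd3b5, picked above for their likeness to the 5 genes. All of these are among the genes counted as lower in both comparisons, so the counts are partly built in. Obp3, Mup5 and Cyp2c11 of the list are also among the strongly lower genes already compared on replicate 4. The order of the arrays is therefore partly built in and is no separate observation. Whether these genes and the 5 described here share a cause was not tested.

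Of 14 hepatocyte markers, 1 rose and 2 fell in control rats, and 1 rose and 5 fell under hydrogen, with medians of −0.08 and −0.11 log2, and their mean was 11.33 to 11.42 in CDAA rats with hydrogen and 11.46 to 11.60 in CDAA control rats, against 11.54 to 11.58 with hydrogen and 11.45 to 11.57 with control treatment on normal chow. The array means of the CDAA rats with hydrogen lay below all the others by a small margin, 11.42 against 11.45. For hydrogen against control on the CDAA diet limma called 0 of the 14, with a median of −0.03 log2. No hydrogen effect is therefore read from the margin. Apoa1, which makes the main protein of high-density lipoprotein, rose by 0.33 (limma, adjusted p = 0.000710). Over all genes limma called 40.6% in control rats and 49.5% under hydrogen, larger shares than of the hepatocyte markers. Of 17 stellate cell and myofibroblast markers, 9 rose and 1 fell in control rats and 11 rose and 1 fell under hydrogen, with medians of 0.47 and 0.64. Their mean was 6.34 to 6.60 in CDAA rats with hydrogen and 6.29 to 6.61 in CDAA control rats, against 5.85 to 5.90 with hydrogen and 5.78 to 6.24 with control treatment on normal chow. Timp1, an inhibitor of matrix proteases, rose by 2.08 ± 0.290 (adjusted p = 6.52e-05), and Dcn, a matrix proteoglycan, by 1.64 ± 0.206 (adjusted p = 3.08e-05).

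Immune, duct and vessel markers were counted in the same way. Over all genes limma called 40.6% in control rats and 49.5% under hydrogen. The bile duct, endothelial and lymphocyte shares were near or below these, so nothing particular to those cells is read from the counts. Of 12 macrophage markers, 5 rose and 2 fell in control rats and 7 rose and 0 fell under hydrogen (medians 0.27 and 0.39), led by Gpnmb, which rose by 2.58 ± 0.301 (limma, adjusted p = 1.76e-05). Their count of 7 called in control rats was 3 without replicate 1 of the normal control group or replicate 3 of the CDAA control group, and 4 without replicate 2 of the normal control group or replicate 4 of the CDAA control group. Of 7 bile duct markers, 3 rose in control rats and 4 under hydrogen, with none falling (medians 0.28 and 0.53); Epcam rose by 0.81 (adjusted p = 0.000372). Of 8 endothelial markers, 2 rose and 1 fell in control rats and 3 rose and 1 fell under hydrogen (medians 0.14 and 0.13); Vwf rose by 1.12 ± 0.097 (adjusted p = 2.75e-06). The endothelial count of 3 in control rats was 1 without replicate 1 of the normal control group or of the CDAA control group. The 4 under hydrogen became 2 without replicate 4 of the normal-chow group with hydrogen or replicate 1 or 2 of the CDAA group with hydrogen, and after a further quantile normalisation, which gave medians of 0.075 and 0.026. Of 8 lymphocyte markers, 1 rose and 2 fell in control rats and 1 rose and 1 fell under hydrogen (medians −0.14 and −0.08), and the 2 under hydrogen became 1 without replicate 4 of the normal-chow group with hydrogen or replicate 2 or 3 of the CDAA group with hydrogen. What part these marker differences play in the 5 low signals was not tested.

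No gene of these 17 lists was called for hydrogen by limma. Of 320 tests over the lists, limma called 0 for hydrogen on the CDAA diet and 0 on normal chow, with 36 and 22 at an unadjusted p under 0.05.

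The 2 nearest coding genes on each side in the RefSeq annotation, 20 in all, were looked up after the values of the 5 were known, and 10 of them were tested. In control rats 2 fell and 2 rose, that is 4 of 10, where 40.6% of all genes were called; under hydrogen 2 fell and 4 rose, 6 of 10, where 49.5% of all genes were called. These shares are near those of all genes. Inhbc, an activin subunit gene and the second gene before Stac3, fell by 1.18 ± 0.160 (limma, adjusted p = 5.24e-05), and Stard4, a sterol transport gene next to Nrep, fell by 0.72 ± 0.149 (adjusted p = 0.00146). Aqp1, a water channel gene and the second gene after Inmt, rose by 0.54 ± 0.133 (adjusted p = 0.00491), and Phf12 next to Sez6 rose by 0.23 ± 0.084 (adjusted p = 0.0427), a call lost in 11 of 23 alternatives. Inhbc was 4.30 to 5.05 in CDAA rats with hydrogen and 4.76 to 5.30 in CDAA control rats, against 6.21 to 6.51 with hydrogen and 5.86 to 6.45 with control treatment on normal chow, so the diets did not overlap there either.

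Across the arrays as a whole the diet was the main axis. The first principal component held 66% of the variance and separated the diets, with replicate 4 of the normal control group at −13.4, against −35.1 to −32.3 for the other 3 arrays of that group. Leaving out that array together with replicate 4 of the CDAA control group, a choice made after the data were seen, gave diet differences in control rats of −6.90 for Stac3, −4.83 for Inmt, −2.95 for Sez6, −2.56 for Nrep and −2.37 for Zfp37. Array medians lay between 4.33 and 4.37.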

How the data were processed

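Liver RNA was labelled with biotin and hybridised to RG-230 PM arrays, per the labels' protocols. The table that the authors deposited holds log2 signals for each probe set. RMA and Expression Console are named in the submitters' processing notes, and their versions and the genome build are not given in the sources used here. RMA equalises the arrays' distributions. Strip and scan batches are not given in the labels, and a part played by them was not tested.

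The table held 31139 probe sets, of which 97 were controls. A probe set was tested if it exceeded the 30th percentile of the non-control values (3.68 log2, the low-signal line) on 4 or more arrays; 22634 passed and 8408 did not. Symbols came from the platform annotation, in which 19063 non-control probe sets had 1 symbol, 572 had several and 11407 had none, and 18983 matched a GRCr8 RefSeq gene by identifier. For a gene with several probe sets, the one of highest mean was taken.

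The 16 arrays were fitted together in limma 3.58.1 (R 4.3.3), each group with its own mean, followed by eBayes and Benjamini-Hochberg adjustment over all tested probe sets within a contrast. A call is an adjusted p under 0.05, and ± is the standard error unless SD is stated. The fit was tested on simulated data. Exact two-sided permutation tests were run on single genes, adjusted over their family. Motifs were searched with Python 3.11.15.

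The 5 genes and the 17 gene lists were chosen with earlier results of these data known. Genes named beyond the 5 are their closest relatives by symbol, the 4 nearest profiles of each, and up to 4 called genes of smallest p in each list (the first 2 measured members if none was called). Chd4, whose probe sets disagree in direction, is counted in its list but not described. Alternatives were a replicate block, a further quantile normalization, median centring, no filter, a trend in eBayes, only the groups compared, and leaving out each array.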

Additional observations from a re-analysis of the deposited data

Results flagged for a closer look

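Stac3 on replicate 4 of the CDAA control group, at 8.65 log2, stood apart from the other 3 arrays of its group, at 4.04, 4.08 and 4.13. Its gap to the nearest of them was 0.980 of the range of the group, above the critical value of Dixon's test for 4 samples. That critical value is one which chance passes in about 1 of 20 groups, and each of the 5 genes was examined in 4 groups. The array was already known from earlier results to be high for Stac3, so the test describes it and is no independent evidence. The same array had the highest Inmt signal of the CDAA rats, at 6.36, and the highest Obp3 signal, at 10.34. Obp3 was picked for its likeness to Stac3 over these same arrays, so its high value there is partly built in and adds no evidence. The cause was not tested.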

How the results depend on the processing

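The diet difference of each of the 5 genes kept its direction under every alternative run, in control rats and under hydrogen. The size for Stac3 in control rats moved most, between −6.83 and −5.29 when single arrays were left out and to −6.90 with both arrays that stand apart left out, an alternative chosen after seeing the data. Of 450 values of the hydrogen tests on the 5 genes under the alternatives, 0 were called, the lowest adjusted p was 0.362 and 33 changed sign. The sign changes came from leaving out arrays. Leaving out single arrays, hydrogen on normal chow ranged from −0.13 to 0.018 for Stac3 and from −0.18 to 0.01 for Sez6. On the CDAA diet it ranged from −1.50 to 0.034 for Stac3, from −0.20 to 0.21 for Sez6, from −0.62 to 0.23 for Nrep and from −0.21 to 0.015 for Zfp37. The difference between the diets ranged from −1.45 to 0.089 for Stac3, from −0.54 to 0.36 for Inmt, from −0.10 to 0.31 for Sez6 and from −0.69 to 0.16 for Nrep. The average ranged from −0.15 to 0.057 for Sez6, from −0.27 to 0.15 for Nrep and from −0.015 to 0.11 for Zfp37. With both arrays that stand apart left out, hydrogen on the CDAA diet gave 0.034 for Stac3, 0.21 for Sez6, 0.088 for Nrep and 0.015 for Zfp37, the difference between the diets 0.17 for Stac3, 0.41 for Inmt and 0.042 for Nrep, and the average 0.017 for Sez6 and 0.0675 for Nrep. Calls over all probe sets were 8027 and 10149 for the diet in control rats and under hydrogen, and ranged from 6632 to 8441 and from 8841 to 10329 when single arrays were left out. Hydrogen on normal chow called 2 probe sets, against 1 with the replicate block, 4 with median centring, 17 with only the groups compared, 0 without both arrays, and 0 to 11 without single arrays. Hydrogen on the CDAA diet called 71, against 2 with only the groups compared, 18 without both arrays, and 21 to 346 without single arrays, with 346 without replicate 2 and 21 without replicate 4 of the CDAA control group. The difference between the diets called 1, against 0 with the replicate block, 0 with the trend, 0 without both arrays, and 0 to 21 without single arrays, and the average called 37, against 17 and 14 to 147. Each count that falls to 0 does so under limma, with 1289 to 2656 probe sets at an unadjusted p under 0.05. The labels do not say whether equal replicate numbers pair the samples. Deviations of same-numbered samples correlated by −0.13 to 0.33 over 24 pairs (median 0.078, against −0.0098 for different numbers), so not every pair passed 0.1 and the block was not used, while 11 of 16 arrays were most like one of their own number, a hint from the data that a pairing may exist. The replicate block changed no call on the 5 genes and gave 8208 and 10345 diet calls, and 82 and 30 calls for hydrogen in CDAA rats and on average. A second probe set could not be tried, because each of the 5 genes has 1. Under hydrogen the call of Nnmt was lost in 3 and that of Ryr1 in 8 of 23 alternatives. Signals of Zfp37 and of some Inmt arrays near background limit how far below normal chow they lie.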
